A study of Mus musculus with 16 samples.

Results

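Sfrp1, Sfrp2 and Frzb encode secreted frizzled-related proteins, extracellular Wnt antagonists, and their messenger RNA was followed in mouse retroperitoneal fat, a visceral depot. The members were 3 named genes of the 8252 on the array, each with 1 probe set annotated with its symbol alone. They are not the whole family on the array: Sfrp4, also measured, is given with the other antagonists below. The signals of these genes by DHT time and sex were known when they were chosen, so the difference between the sexes is described without a test. For the same reason the members' p-values for DHT and time are descriptions only. Of the 3 members, 2 passed the filter on low signal and entered the fit over 5688 genes. Sfrp1 passed it through the female arrays: its geometric mean signal was 493 in females and 80.4 in males, and the limit was 116.

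All mice were gonadectomised, the vehicle controls included. Females and males each gave 1 array at 1, 3 and 6 h and at 12, 18 and 24 h after 0.1 mg of dihydrotestosterone (DHT) injected under the skin, and 2 arrays from vehicle-treated mice, 16 arrays in all. DHT is the potent androgen made from testosterone. The labels' protocols have the depots of a whole group taken at once, so 1 array may hold RNA of several animals. Strain, age and the number of animals are not given here. Whether both vehicle arrays of a sex hold RNA of different mice is not labelled. The spread behind the p-values therefore comes partly from vehicle arrays that may be technical repeats, and otherwise from departures of single arrays from a time course shared by the sexes. The vehicle samples are labelled with a time of 24 h.

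Wnt proteins are secreted signals that bind Frizzled receptors with the co-receptors Lrp5 and Lrp6, and in the canonical pathway this stabilises beta-catenin, which activates Tcf and Lef target genes. Secreted frizzled-related proteins carry a Frizzled-like cysteine-rich domain that binds Wnt proteins outside the cell. In fat, canonical Wnt signalling is known to hold back the differentiation of precursors into fat cells, and these proteins are made by stromal cells among other sources.

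Signals are MAS5 intensities in arbitrary units, scaled by the authors so that every array has the same trimmed mean of 500, and array medians lay between 184 and 220. The sex labels held in the data: Xist had signals of 1033 to 2200 on female arrays and 4.74 to 61.0 on male arrays. A pair of arrays stood apart. Male vehicle replicate 2 correlated with the other 15 arrays at 0.608 to 0.702 (log2 signals, over the 5688 tested genes). These 15 correlated among themselves at 0.877 to 0.978. On male vehicle replicate 2 the 14 skeletal muscle markers summed to 278771, against at most 55506 on the other male arrays. The 14 fat cell markers summed to 24938 on it, against at least 143996 on the other male arrays. The female 12 h array had 6 exocrine pancreas markers summing to 80971, against at most 6726 on any other array.

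The proximal promoters of Sfrp2 and Frzb are shown, and no promoter sequence was available for Sfrp1. They run from 250 bases before to 50 bases after the start of the gene, from RefSeq on build GRCm38.p6, and capitals mark the motifs found. The Sfrp2 window is chr3:83766071-83766370 on the plus strand, and the Frzb window is chr2:80447347-80447646 on the minus strand, read 5′ to 3′ along the gene.
Sfrp2: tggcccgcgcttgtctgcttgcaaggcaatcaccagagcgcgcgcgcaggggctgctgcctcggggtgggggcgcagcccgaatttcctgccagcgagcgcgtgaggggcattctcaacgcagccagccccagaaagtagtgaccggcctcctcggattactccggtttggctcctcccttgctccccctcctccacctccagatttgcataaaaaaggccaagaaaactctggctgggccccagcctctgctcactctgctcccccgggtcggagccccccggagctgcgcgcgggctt
Frzb: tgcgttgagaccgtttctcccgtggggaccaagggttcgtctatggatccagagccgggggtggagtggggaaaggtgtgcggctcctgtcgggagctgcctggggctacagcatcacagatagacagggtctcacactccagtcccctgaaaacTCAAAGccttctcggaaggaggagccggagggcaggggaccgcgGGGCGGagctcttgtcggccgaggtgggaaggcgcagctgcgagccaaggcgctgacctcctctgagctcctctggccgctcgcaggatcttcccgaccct
The motifs searched, on both strands, were AGAACA, one arm of the androgen response element, CTTTGA, the core bound by Tcf and Lef factors, TATAAA, the TATA box, and GGGCGG, the GC box. The Sfrp2 window held none of these. The Frzb window held TCAAAG, the reverse complement of the Tcf and Lef core, 95 bases before the start, and GGGCGG 51 bases before it. Among 32851 promoters of the same length, 19.0% held AGAACA, 13.6% TATAAA and 35.7% GGGCGG in either orientation, and 5257 held CTTTGA. Both windows were rich in CpG dinucleotides, with 22 in Sfrp2 and 20 in Frzb against a median of 7 over all promoters. A match describes these letters and is not a measured site.

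Sfrp2 was the most abundant member by signal, Sfrp1 was intermediate in females and faint in males, and Frzb was faint in both. Probe sets differ in brightness, so the order is one of signal and not of transcript number. Sfrp2 (probe set 93503_at) was brighter than 90.9% of all probe sets by its mean signal, Sfrp1 (97997_at) than 58.2%, and Frzb (104672_at) than 8.79%.

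**Figure D1:**
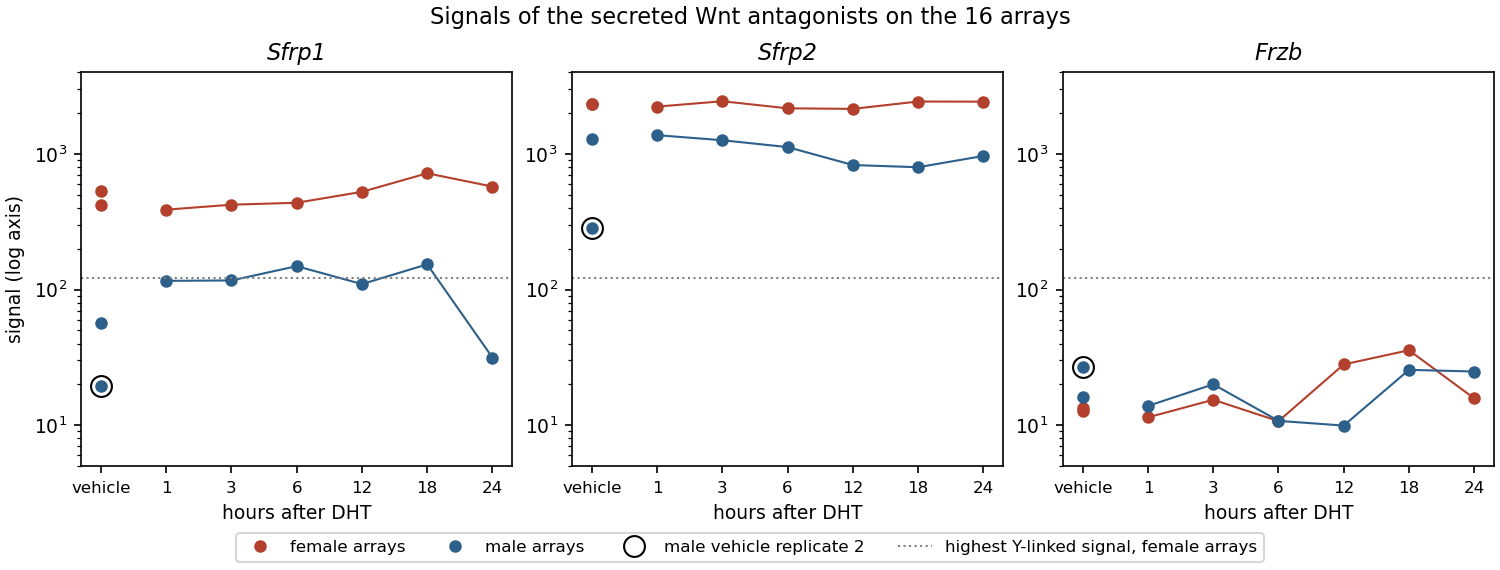
Signal (log axis) of Sfrp1, Sfrp2 and Frzb on the 16 arrays, with vehicle at the left and hours after DHT to the right. Each point is 1 array, lines join the DHT times of a sex, the ring marks male vehicle replicate 2 and the dotted line is the highest signal of a Y-linked probe set on a female array. The female points of Sfrp1 and Sfrp2 lie above all male points, and all Frzb points lie under the dotted line.

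Sfrp1, which binds Wnt proteins and has been described as a regulator of fat cell formation, was the member with the widest gap between the sexes. On female arrays its signal was 537 and 417 after vehicle, and 388, 422, 436, 525, 720 and 575 at the 6 DHT times from 1 to 24 h. On male arrays it was 56.3 and 19.5 after vehicle, and 116, 117, 149, 110, 153 and 31.5 at the same times. All 8 female signals lay above all 8 male signals, and the lowest female signal was 2.53 times the highest male one. The same separation was found for 3.46% of the tested genes.

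The mean Sfrp1 signal was 502 ± 110 over the 8 female arrays and 94.0 ± 51.6 over the 8 male arrays (± SD, vehicle and DHT together). The fitted difference was 2.40 ± 0.28 (log2, female minus male, ± SE), on the scale of log2(signal + 16), which understates differences of low signals. Leaving out male vehicle replicate 2 (15 arrays) gave 2.23 ± 0.23. Male Sfrp1 signals were not clear of the background of the platform. Of the 8, 6 were no higher than 122, the highest signal of 9 Y-linked probe sets on female arrays. That signal came from 1 Sry probe set, which averaged 71.5 on female arrays, and the median of the 9 sets was 19.1. With male signals under that highest Y-linked signal set to it, the female signal was at least 3.19 times the male one at 1 h, 3.47 at 3 h, 2.93 at 6 h, 4.32 at 12 h, 4.69 at 18 h and 4.72 at 24 h. The fitted difference likewise holds male signals that are not clear of background.

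Sfrp2, which in mouse fat is known as a product of stromal cells and fibroblasts, was bright in both sexes and higher in females. On female arrays its signal was 2336 and 2331 after vehicle, and 2232, 2445, 2168, 2148, 2434 and 2427 at the DHT times in order. On male arrays it was 1291 and 286 after vehicle, and 1375, 1261, 1123, 828, 798 and 966 at those times. The 8 female signals again lay above the 8 male signals, with the lowest female signal 1.56 times the highest male one.

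Female Sfrp2 signals varied little, at 2315 ± 120, whereas male signals were 991 ± 356 (SD, n = 8 each). The male spread includes male vehicle replicate 2 at 286, and the other 7 male arrays averaged 1092 ± 231. The fitted difference was 1.33 ± 0.27 (log2, female minus male) with all arrays and 1.09 ± 0.11 without that one. At matched times the ratio of female to male signal was 1.62 at 1 h, 1.94 at 3 h, 1.93 at 6 h, 2.59 at 12 h, 3.05 at 18 h and 2.51 at 24 h.

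Frzb, also named Sfrp3 and best known from cartilage, had no signal above background. Its signals ran from 10.7 to 35.7 with a median of 14.4 on female arrays, and from 9.93 to 26.7 with a median of 18.1 on male arrays. The mean was 17.9 ± 9.0 over the 8 female arrays and 18.5 ± 6.8 over the 8 male arrays (± SD). The 9 Y-linked probe sets had a median of 19.1 on female arrays, where no transcript exists. All 16 Frzb signals lay within the range of those probe sets, so no fold and no test are given for this gene.

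Over all tested genes, limma with Benjamini-Hochberg adjustment called 326 of 5688 between the sexes at 0.05, 5.73% of them, with 263 higher (4.62%) and 63 lower (1.11%) in females. When male vehicle replicate 2 was left out the shares were 16.6% called, 8.83% higher and 7.75% lower. Sfrp1 and Sfrp2 both lie among those higher in females, and since their sex difference was known when they were chosen nothing is read from this. The gene and marker lists below were likewise chosen with earlier results of these data known. Their counts are descriptions to set beside these shares.

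Other extracellular Wnt antagonists, both secreted and membrane-bound, were measured with 8 genes, of which 4 were tested, 1 was higher in females and none lower. Over all tested genes 4.62% were higher. Dkk3, a divergent member of the Dickkopf family of secreted proteins, had a mean signal of 396 ± 74.5 on the female and 126 ± 36.0 on the male arrays (8 each, ± SD). These did not overlap, and 3.46% of the tested genes had all female signals above all male ones. Male Dkk3 signals, 41.0 to 157, lay near the highest Y-linked signal on female arrays, 122, and 1 of the 8 was no higher. Its difference was 1.59 ± 0.17 (log2, limma adjusted p = 0.000287). Sfrp4, another secreted frizzled-related protein, averaged 554 ± 201 in females and 369 ± 122 in males, and its difference of 0.56 ± 0.20 did not pass (adjusted p = 0.133). Apcdd1, a membrane-bound Wnt inhibitor, had a difference of -0.04 ± 0.49, which became -0.54 without male vehicle replicate 2 and then passed (adjusted p = 0.000726). The median difference of the 4 tested antagonists was 0.39 with 16 arrays and 0.22 with 15, and that of all tested genes 0.02 with 16 arrays.

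Further along the pathway the counts called between the sexes were small. Over all tested genes 5.73% were called and 4.62% were higher in females, so nothing is read from these counts. Of 18 genes for Wnt ligands and their export 3 were tested and none passed limma's adjusted test or had an unadjusted p under 0.05, with Wls, the carrier that brings Wnt proteins to the cell surface, at 0.21 ± 0.17 and Wnt1 at 0.04 ± 0.19. The other 15 were too faint to test. Of 11 tested receptors and co-receptors 1 was higher in females, namely Fzd1, a Frizzled receptor, at 0.59 ± 0.15 (adjusted p = 0.0419). Of 26 tested genes of the intracellular pathway 1 was higher, Ppp2r5c, a regulatory subunit of protein phosphatase 2A, at 0.63 ± 0.14 (adjusted p = 0.0187). None of these was lower with 16 arrays, and without male vehicle replicate 2 the receptor Fzd2 also passed as higher and the phosphatase subunit Ppp2r5a as lower.

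Of 10 tested genes listed as Wnt targets 4 were higher in females and none lower, and 4.62% of all tested genes were higher. One was Ccn4, a matricellular protein first known as Wisp1, at 1.97 ± 0.19. All 8 male Ccn4 signals, 41.0 to 114, were under the 122 of the brightest Y-linked probe set. Ccn4 thus passed the filter through females and its difference is one against background, so no p-value is given. The count of 4 includes Ccn4 and nothing is read from it. The others were the transcription regulator Id2 at 0.93 ± 0.23 (limma adjusted p = 0.0356), the transcription factor Snai2 at 0.85 ± 0.10 (0.000557) and the cell cycle regulator Ccnd1 at 0.55 ± 0.11 (0.0126). Axin2, the usual readout of canonical signalling, averaged 146 in females and 144 in males, a difference of 0.02 ± 0.13 (adjusted p = 0.959). Axin2 was singled out after its value was seen.

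**Figure D2:**
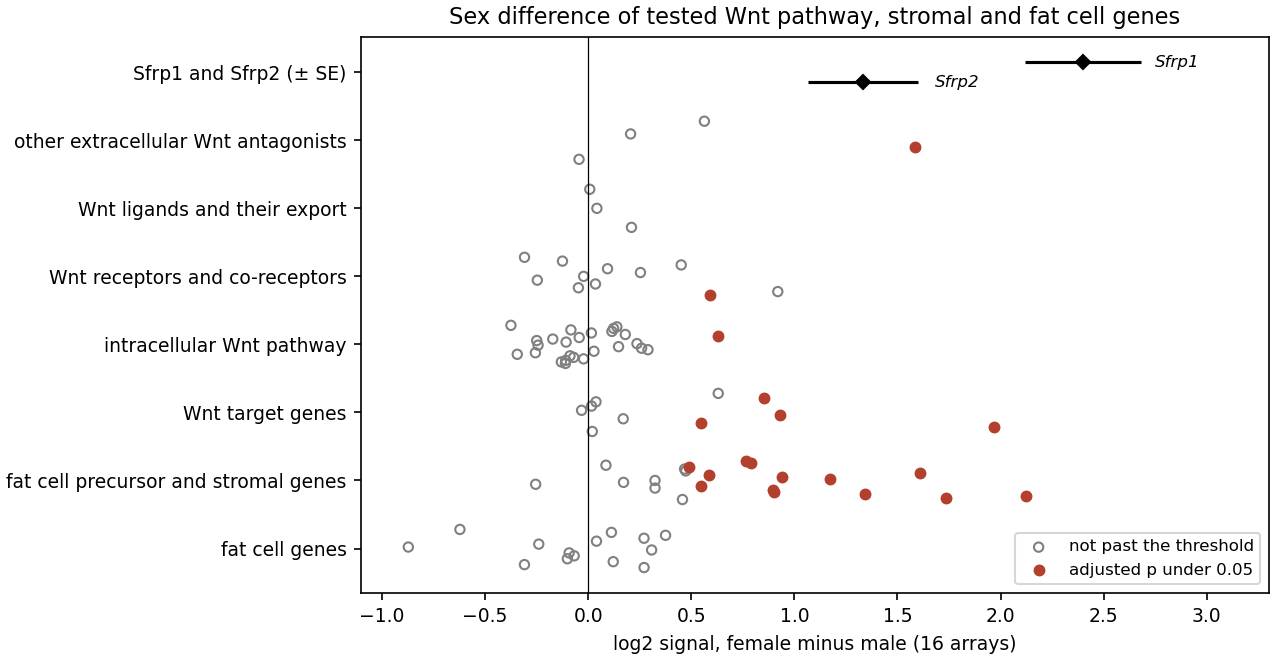
Difference between females and males (log2 signal, 16 arrays) for each tested gene of the Wnt pathway, stromal and fat cell lists, 1 row a list. Filled points passed limma's adjusted threshold, open points did not, and diamonds give Sfrp1 (2.40) and Sfrp2 (1.33) with their SE. Filled points are densest in the row of fat cell precursor and stromal genes, 13 of 21.

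Genes of fat cell precursors and stroma had the most calls between the sexes among the lists. The lists were chosen with earlier results of these data known, so nothing is read from this order. Of 21 tested 13 were higher in females and none lower, with a median difference of 0.59, and 4.62% of all tested genes were higher. The largest were Col1a2 at 2.13 ± 0.12 and Col1a1 at 1.73 ± 0.15, which encode the chains of type I collagen, the matrix proteoglycan Lum at 1.61 ± 0.13, Col3a1 at 1.34 ± 0.26, the secreted Fstl1 at 1.17 ± 0.17 and the growth arrest gene Gas1 at 0.94 ± 0.11. Col1a2 averaged 11910 in females and 2671 in males (n = 8 each). With 15 arrays the count was 16 of 21, and 8.83% of all tested genes were higher.

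Fat cell genes did not separate the sexes with all arrays, where 0 of 14 passed limma's adjusted test and the largest differences were Lep, the hormone leptin, at -0.87 ± 0.37 and the glucose transporter Slc2a4 at -0.62 ± 0.21. Of these 14 genes 2 had an unadjusted p under 0.05. With 15 arrays, 7 of the 14 were lower in females, among them Lep at -1.19, the lipid droplet gene Cidec at -0.86 and the lipase Lipe at -0.82. Of all tested genes 7.75% were lower in females with 15 arrays.

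Summed signals of cell type markers differed in the same direction as Sfrp1 and Sfrp2 for several cell types, and little or the other way for others. Female over male ratios of median sums were 1.10 for endothelium, 1.06 for adrenal, 0.997 for mesothelium and 1.60 for exocrine pancreas. They were 0.770 for fat cells and 0.720 for kidney, whose markers were too faint to test. The 9 stromal markers share Col1a1, Col3a1, Lum and others with the list above, and 5 of them were called higher in females. They summed to 50547 to 78374 on female arrays and 23528 to 31237 on male arrays, a ratio of medians of 2.10. The sum weighs bright genes most: Col1a1 averaged 24601 in females and 7249 in males, and Cd34 1281 and 913. Of the 9 fitted differences 8 were positive, and Dpp4 averaged lower in females, 165 against 205. The 9 macrophage markers summed to 18035 to 23706 in females and 4020 to 13587 in males, or 10765 to 13587 without male vehicle replicate 2, and of 8 tested 3 were called higher with 16 arrays and 7 with 15. The 7 smooth muscle markers, 6 called higher, summed to 9139 to 13263 in females and 4455 to 6933 in males. Over all tested genes 4.62% were called higher in females with 16 arrays and 8.83% with 15. Skeletal muscle went the other way: its 14 markers summed to 15665 to 42412 in females and 31077 to 278771 in males, with a ratio of medians of 0.633, or 0.650 for 7 male arrays. Of 13 tested muscle markers 4 were called lower in females with 15 arrays, where 7.75% of all tested genes were called lower. With 16 arrays limma's adjusted test called 0 of the 13, against 5 at an unadjusted p under 0.05. The part of cell composition in the difference of Sfrp1 and Sfrp2 was not tested. In these bulk samples, more cells of a type and more RNA per cell cannot be told apart.

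**Figure D3:**
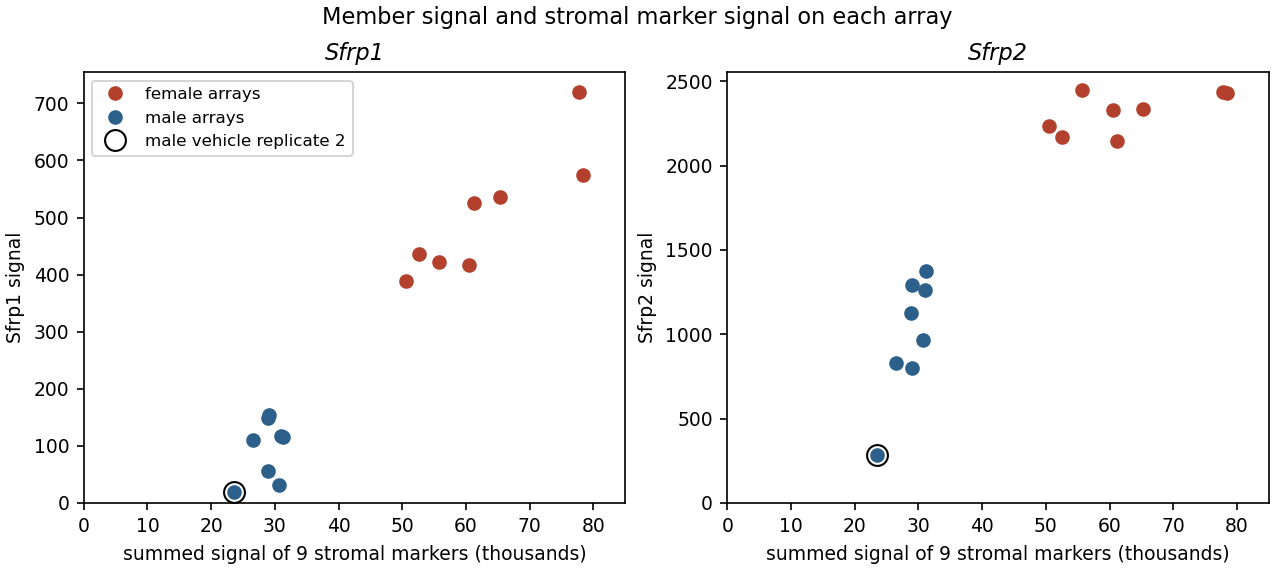
Signal of Sfrp1 and Sfrp2 against the summed signal of 9 stromal markers, 1 point an array, with the ring on male vehicle replicate 2. Female arrays lie at 50547 to 78374 and male arrays at 23528 to 31237 on the x axis, and the sexes form separate clusters in both panels.

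The values share each array's scale and RNA, and the sexes form separate clusters, so no correlation over the 16 arrays is given. Male vehicle replicate 2 had the lowest stromal sum, 23528, together with the lowest Sfrp1 and Sfrp2 signals.

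The genes with the most similar profiles were found by the root mean square difference of centred log2 signals over 16 arrays. For Sfrp1 these were Cdk1, the mitotic kinase, at 0.43, Postn, the matrix protein periostin, at 0.45, Mup3, a major urinary protein whose close paralogs may share the probes, at 0.54, the microfibril gene Mfap2 at 0.57 and Eln, which encodes elastin, at 0.59. Over 15 arrays they were Postn, Cdk1, Tmem45a, Col1a2 and Ccn4. For Sfrp2 they were Col6a3 and Col3a1 at 0.25 and 0.26, the transcription factor Gata6 at 0.26, the macrophage gene Mpeg1 at 0.26 and Col5a2 at 0.27. Over 15 arrays the Sfrp2 set became Wt1, Grb10, Csrp2, D17H6S56E-5 and Fndc1, so none of the first 5 stayed. For Frzb, whose profile is background, the nearest were Rfc3, Rad52, Krt6a, Golga7 and Pxn at 0.16 to 0.19, which are nearly flat profiles.

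The response to DHT was examined next, since the design asks how an androgen changes fat over 24 h. Neither member passed. Sfrp1 averaged 312 ± 226 on the 12 DHT arrays and 257 ± 258 on the 4 vehicle arrays, and Sfrp2 averaged 1684 ± 679 on the DHT arrays and 1561 ± 982 on the vehicle arrays (SD, both sexes). Each group holds both sexes, so these SDs include the sex difference, and the overlap of the groups follows from it and says nothing of DHT. The fitted change was 0.66 ± 0.32 for Sfrp1 (log2, DHT minus vehicle, limma adjusted p = 0.630) and 0.36 ± 0.31 for Sfrp2 (adjusted p = 0.653). In this comparison 4 genes, 0.0703% of those tested, were called (0.0879% of them with 15 arrays).

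Both changes rested on the male vehicle arrays. They were 0.31 ± 0.29 for Sfrp1 and -0.12 ± 0.14 for Sfrp2 (adjusted p = 0.998 each) without male vehicle replicate 2. In females alone, a fit added after the signals were seen, DHT minus vehicle was 0.08 ± 0.41 for Sfrp1 and -0.02 ± 0.42 for Sfrp2. In males alone it was 1.24 ± 0.41 for Sfrp1 (adjusted p = 0.221) and 0.75 ± 0.42 for Sfrp2 (adjusted p = 0.311). Sfrp1 passed the filter through the female arrays, and 6 of its 8 male signals lay within the Y-linked range. Its male change is therefore one of signals near background. With male vehicle replicate 1 as the only male control, the male changes were 0.72 ± 0.47 for Sfrp1 and -0.31 ± 0.23 for Sfrp2, so that of Sfrp2 turned direction. Male Sfrp1 signals were 31.5 to 153 after DHT and 19.5 and 56.3 after vehicle, so the groups overlapped through the 24 h array.

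**Figure D4:**
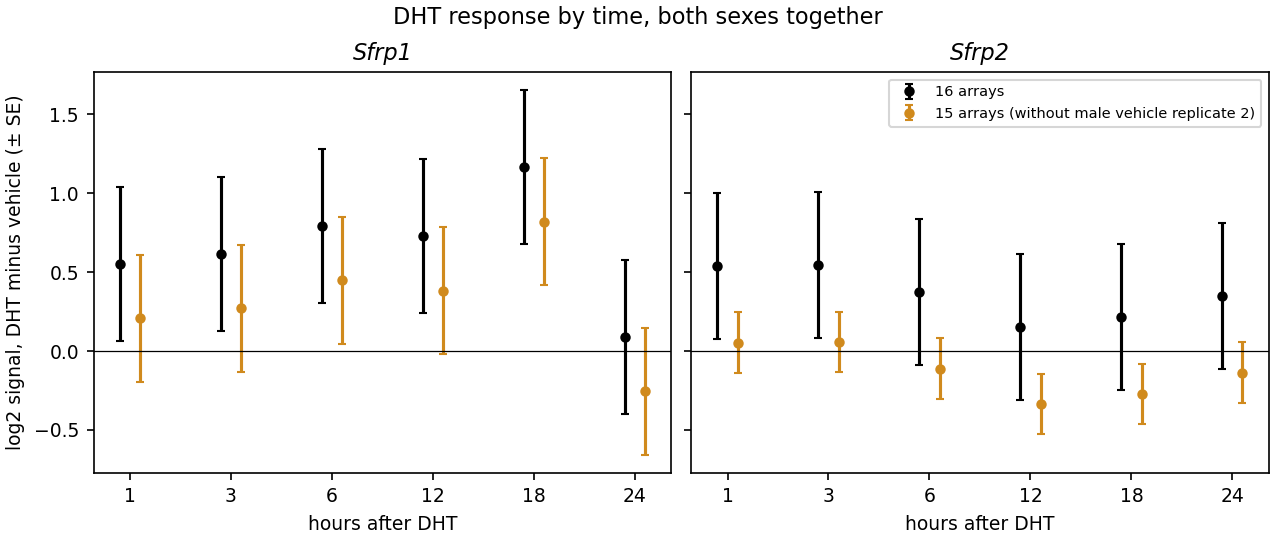
Change of Sfrp1 and Sfrp2 at each DHT time against vehicle (log2 signal, both sexes, points with ± SE), with 16 arrays in black and without male vehicle replicate 2 in orange. With 16 arrays all estimates lie above 0, at 0.09 to 1.17 for Sfrp1 and 0.15 to 0.55 for Sfrp2, and without that array 4 of the 6 Sfrp2 estimates and the 24 h estimate of Sfrp1 lie under 0.

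By time, the Sfrp1 change was 0.55, 0.62, 0.79, 0.73, 1.17 and 0.09 from the 1 h to the 24 h arrays, each ± 0.49. With 15 arrays it was 0.21, 0.27, 0.45, 0.38, 0.82 and -0.26, each ± 0.40. The Sfrp2 change was 0.54, 0.55, 0.38, 0.15, 0.22 and 0.35 at the same times, each ± 0.46, and with 15 arrays 0.05, 0.06, -0.11, -0.33, -0.27 and -0.14, each ± 0.19. These 6 values share the vehicle arrays and each has 2 DHT arrays behind it. In the F test of all times, which called 3 genes or 0.0527% of those tested (0.0879% with 15 arrays), the adjusted p was 0.9997 for both members.

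The sexes were then compared in their response. The difference between the female and the male response was -1.16 ± 0.57 for Sfrp1 (log2, female minus male, adjusted p = 0.593) and -0.76 ± 0.59 for Sfrp2 (adjusted p = 0.631). limma called 0.0% of the genes here, while 365 had an unadjusted p under 0.05. Without male vehicle replicate 2 the differences were -0.65 ± 0.59 and 0.29 ± 0.29, so that of Sfrp2 changed direction. Without male vehicle replicate 1, which leaves the muscle-rich array as the only male control, they were -1.68 (adjusted p = 0.0487) and -1.82 (adjusted p = 0.000622), and 1920 genes were called. A sex difference of the response could not be separated from that array. For Sfrp1 it also rests on male signals that are not clear of background.

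The later arrays, at 12, 18 and 24 h, were set against the early ones at 1, 3 and 6 h, a comparison whose means hold no vehicle array. In males, Sfrp2 had 828, 798 and 966 at late times against 1375, 1261 and 1123 at early times, all late signals below all early ones, a pattern that 4.82% of the tested genes showed. The change was -0.53 ± 0.43 in males (late minus early) and 0.03 ± 0.43 in females, and without male vehicle replicate 2 the male SE was 0.13. In females, Sfrp2 had 2148, 2434 and 2427 late against 2232, 2445 and 2168 early, and these overlapped.

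For Sfrp1 the late and early signals separated in females. There it had 525, 720 and 575 at late times against 388, 422 and 436 at early times, all late signals above all early ones, as for 6.14% of the tested genes. In males it had 110, 153 and 31.5 late against 116, 117 and 149 early, which overlapped. The change was 0.52 ± 0.36 in females and -0.50 ± 0.36 in males, where the signals are near background. The summed stromal markers on the female arrays moved in the same direction, 61225 to 78374 at late times and 50547 to 55755 at early ones. So did the macrophage markers, 19894 to 23706 late and 18035 to 18547 early, and the mean signal of the antisense control probe sets, at 7.32 or more on the late arrays and at 6.13 to 6.29 on the early ones (log2). The part of these in the change was not tested. The pancreas-rich female 12 h array is one of the late arrays, and without it the late Sfrp1 signals, 720 and 575, were still above all early ones.

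None of these changes passed. Over both sexes late minus early was 0.01 ± 0.32 for Sfrp1 and -0.25 ± 0.31 for Sfrp2 (limma adjusted p = 0.9996 each). The difference between the sexes was 1.02 ± 0.51 for Sfrp1 and 0.56 ± 0.60 for Sfrp2 (adjusted p above 0.99 for both). limma called 0.0% of the genes for late against early times, and 145 had an unadjusted p under 0.05. With 15 arrays 2 genes, 0.0352%, were called and neither was a member.

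The other Wnt genes showed no called response. In the 5 lists of antagonists, ligands, receptors, intracellular components and targets 0 of 54 tested genes passed limma's adjusted test for DHT against vehicle, for late against early times or for the sex difference of the response. At an unadjusted p under 0.05 these counts were 4, 1 and 1. Among them the antagonists furthest from 0 after DHT were Apcdd1 at 0.77 ± 0.57 and Sfrp4 at -0.44 ± 0.23 (DHT minus vehicle, adjusted p = 0.630 each), and with 15 arrays they were at -0.22 ± 0.10 and -0.51 ± 0.25, so that Apcdd1 turned direction. Of the receptors these were Fzd4 at 0.68 ± 0.27 and Fzd2 at 0.62 ± 0.41, and with 15 arrays they were at 0.37 ± 0.22 and -0.02 ± 0.22. Sfrp4 also had the largest late minus early value of the antagonists, -0.47 ± 0.23.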

How the data were processed

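Fat RNA of gonadectomised mice was hybridised to 16 Affymetrix arrays. The authors deposited linear signal intensities made with MAS5, per the submitters' processing notes, which name no version. Per the deposited values, each array's mean after trimming 2% at each end is 500, so signals are relative to the whole array. Genes were named from the platform annotation, which gives 1 symbol for 10855 of 12488 probe sets. Where a gene had several, its brightest probe set by mean log2 signal was kept, and genes whose mean fell under the 40th percentile (116.03) were left out.

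log2(signal + 16) was fitted with limma 3.58.1 (R 4.3.3), sex and time as factors, eBayes with a mean trend, 8 residual degrees of freedom, two-sided, Benjamini-Hochberg over 5688 genes at 0.05. The procedure was tested on simulated data. Models with sex by DHT and sex by late terms gave the values in each sex. Alternatives changed the pseudocount (1, 64), the filter, the probe set rule, the scaling, the trend, the time factor and each array in turn.

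Sex, DHT time and vehicle were taken from the sample titles, and vehicle replicates were numbered in label or accession order. The members, gene lists and marker lists were chosen with earlier results of these data known. Of each list the called genes were named, up to 6 by size, and otherwise the 2 to 4 furthest from 0. Listed symbols were matched to current names, and older names were used only where they pointed to 1 gene. The markers were also read for mesothelium, endothelium, exocrine pancreas, kidney and adrenal. Precision is limited by the number of arrays, and near background by the floor of the signal.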

Additional observations from a re-analysis of the deposited data

Results flagged for a closer look

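Groups of 4 to 8 arrays were searched for a single array far from the others by Dixon's gap over range, in 21 groups of values. The limits used flag about 1 in 20 groups by chance when groups are separate and alike. These groups share arrays and some mix the sexes, so that rate does not describe them. Sfrp1 on the 6 male DHT arrays was 31.5 at 24 h, its lowest value, against 110 to 153 at the other 5 times, a gap of 0.766 of the range. Sfrp2 on the 8 male arrays was 286 on male vehicle replicate 2, its lowest value, against 798 to 1375 on the other 7, a gap of 0.649 of the range. That array also had the summed skeletal muscle signal of 278771 given above. The cause of neither value was tested.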

How the results depend on the processing

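Sfrp1 and Sfrp2 stayed higher in females under every alternative that was run, with 2.22 to 2.53 and 1.09 to 1.47 (log2) when each array was left out in turn. For neither member did an alternative make the DHT against vehicle or the late against early change over both sexes pass. Changes within a sex were not followed through every alternative. The Sfrp1 late minus early value of 0.01 turned to -0.048 with a pseudocount of 1, to -0.0033 after quantile normalisation, to -0.50 in males alone, and ran from -0.23 to 0.24 without single arrays. For Sfrp2, DHT minus vehicle ran from -0.12 to 0.64 without single arrays and was -0.017 in females alone, and late minus early was 0.033 in females alone. The sex difference of the DHT response ran from -1.68 to -0.65 for Sfrp1 and from -1.82 to 0.29 for Sfrp2. The ends came from leaving out either of the 2 male vehicle arrays, which left 1 male control. This result therefore depended on which male vehicle array was kept. The fits within a sex were chosen after seeing the data. Genes called between the sexes numbered 604 with the DHT times as replicates of 1 group and 198 to 943 without single arrays, the highest without male vehicle replicate 2 and the lowest without the female 6 h array. For DHT against vehicle 0 were called with the times as replicates, against 291 at an unadjusted p under 0.05 in limma with times as a factor, and 2 to 5 without single arrays. Late against early gave 0 to 2, the sex difference of the response 0 to 1920, and all times together 0 to 5 without single arrays and 0 without the mean trend. The cause of these shifts was not tested. No paired analysis was possible because the labels carry no replicate numbers shared between groups. With 1 array per sex and DHT time, a response at a single time has no replicate within a sex.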
